A study of Zea mays with 50 samples.

Results

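bHLH97 and bHLH103, a pair of putative regulators of reproductive phasiRNAs, were each expressed in maize leaf protoplasts (leaf cells freed of their walls), and the transcripts of those cells were compared with those of cells expressing GFP alone. All libraries of the pair were taken, each set against the GFP library of its own protoplast preparation (prep), which gave 8 of the study's 50 libraries: 2 of bHLH97 (preps 2 and 4), 2 of bHLH103 (preps 1 and 3) and the 4 GFP controls. Cells in all 8 came from B73 plants, taken from leaves of over 10 dark-grown (etiolated) seedlings, 10 to 12 days of age and kept at 25 °C. Constructs were driven by the viral 35S promoter, with GFP at the N-terminus of each regulator (p35S-GFP-bHLH97 and p35S-GFP-bHLH103) and p35S-GFP as the control. Expression was therefore transient and constitutive, in a leaf cell and not in an anther. The GFP libraries also serve the other regulators of their preps, 11 beside bHLH97 and 10 beside bHLH103.

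Basic helix-loop-helix (bHLH) proteins are a large family of plant transcription factors that bind DNA as dimers, usually at E-box sequences. In grasses several bHLH factors act in the anther, above all in the tapetum, the nutritive layer around the developing pollen. phasiRNAs are phased small RNAs cut by Dicer-like proteins from long precursor transcripts of PHAS loci, and in grasses they accumulate mainly in anthers.

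Values are deposited RPKM (reads scaled by the length of the row and the size of the library), for 30213 rows, and differences are on the scale log2(RPKM + 0.5), which understates the change of low rows. Depth recovered from the values was 7603575 to 10857348 reads in the 8 libraries, where 1 read of a row of median length was worth 0.0604 to 0.0804 RPKM. Correlations between the 8 libraries lay between 0.931 and 0.974, with 0.969 between the bHLH97 libraries, 0.960 between the bHLH103 libraries and 0.963 and 0.970 within the pairs of GFP libraries. Calls rest on a limma model of all 50 libraries and need an adjusted p (Benjamini-Hochberg) under 0.05 together with a log2 change of 1 or more in size. The 28122 rows that reached 1 RPKM in 2 or more libraries were tested. Errors of log2 changes are standard errors (SE) from that model. The replicates of a group are separate preps, 2 libraries each, so the errors cover the spread between these libraries only. In bulk RNA a shift in a transcript can come from fewer cells of a type or from less RNA per cell, which cannot be told apart here.

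Whether the expressed regulator was visible could not be checked by name. The reference annotation held 1 gene named bHLH97 or bHLH103, and 0 such genes carried an ID found in the table, so the row with the largest rise in each regulator was taken after its values were seen. For bHLH103 that row was GRMZM2G301089, which has no name in the reference. It stood at 4.84 RPKM in GFP and 5331 RPKM in bHLH103 cells of prep 1, and at 10.7 and 8126 RPKM in those of prep 3. Both bHLH103 libraries were far above every other library of the study, since the other 42 regulator libraries apart from the pair lay between 3.34 and 125 RPKM (median 38.9).

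GRMZM2G301089 was also higher in bHLH97 than in GFP, at 138 against 58.2 RPKM in prep 2 and 49.0 against 7.92 RPKM in prep 4. Both levels were above all 11 other regulators of the same prep, whose highest were 125 RPKM in prep 2 and 46.7 RPKM in prep 4. The log2 difference from GFP of 1.90 ± 1.37 was not called (limma adjusted p = 0.662). In bHLH103 the log2 rise was 9.73 ± 1.37 (limma adjusted p = 0.00236). Against the other regulators of preps 1 and 3 it was 7.82.

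For bHLH97 the row farthest above GFP was GRMZM2G139131, also without a name, with a log2 difference of 4.24 ± 1.5 that was not called (limma adjusted p = 0.540). It was listed at 0 in GFP and stood at 19.2 RPKM in bHLH97 cells of prep 2, against 2.43 and 25.9 RPKM in prep 4. In the bHLH103 preps the order was mixed, at 0.710 RPKM in GFP and 18.1 RPKM in bHLH103 cells of prep 1 but 20.6 and 2.38 RPKM in prep 3. Over the 50 libraries this row took separate levels, 0 to 5.55 RPKM in 32 libraries and 13.6 to 25.9 RPKM in 18, and 14 of the 42 libraries of the other regulators were at the upper level.

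**Figure D1:**
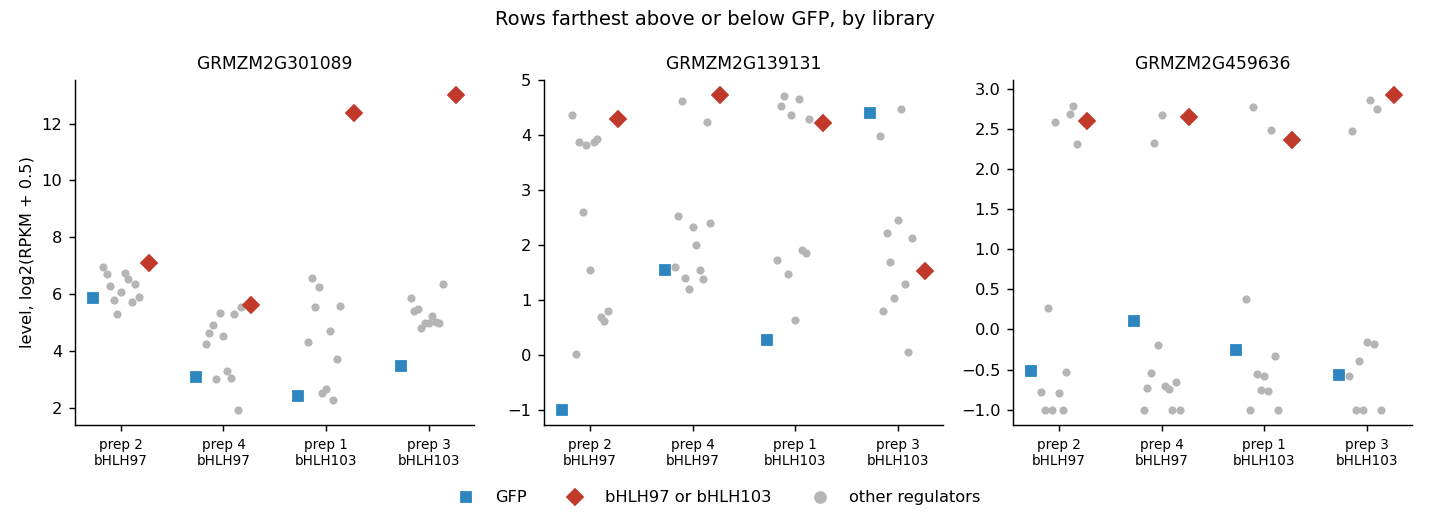
Level of 3 rows, as log2(RPKM + 0.5), in GFP (squares), in bHLH97 or bHLH103 (diamonds) and in the other regulators of the same prep (circles), by prep. GRMZM2G301089 stands at 5331 and 8126 RPKM in the bHLH103 libraries only, while GRMZM2G139131 and GRMZM2G459636 sit at a lower or an upper level in each library.

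A second row of this kind, GRMZM2G459636, chosen after its values were seen, was at its upper level in all 4 bHLH libraries and at its lower level in all 4 GFP libraries. It stood at 0.197 and 5.57 RPKM in GFP and bHLH97 of prep 2, at 0.577 and 5.79 RPKM in prep 4, at 0.336 and 4.66 RPKM in GFP and bHLH103 of prep 1, and at 0.176 and 7.06 RPKM in prep 3. Among the 42 libraries of the other regulators 11 were at the upper level, and 0 of those regulators were there in both of their preps. GRMZM2G402174 showed the reverse, with all 4 GFP libraries at its upper level (5.33 to 17.7 RPKM) and all 4 bHLH libraries at its lower one (0.825 to 1.57 RPKM). Of the other regulators 13 libraries were at the upper level of GRMZM2G402174, and 1 regulator was there in both preps.

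For bHLH97 against GFP, 0 rows were called by limma, which is 0% of those tested, and the lowest adjusted p was 0.468. At an unadjusted p below 0.05 there were 2399 rows (8.53%), 1145 higher and 1254 lower. A limma-voom fit of recovered reads called 0. Within single preps 786 rows were higher and 711 lower by at least 1 in prep 2, and 563 higher and 792 lower in prep 4. With either bHLH97 library left out 1 row was called, without the GFP library of prep 2 there were 3, and without that of prep 4 there were 2.

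Among named rows averaging 2 RPKM or more, Kiwellin-1, of a family of secreted plant proteins linked to defence against fungi, was farthest above GFP in bHLH97. It stood at 1.21 RPKM in GFP and 4.38 RPKM in bHLH97 of prep 2, and at 0.921 and 3.05 RPKM in prep 4. Neither bHLH97 library overlapped the GFP libraries, and the log2 difference was 1.41 ± 0.39 (limma adjusted p = 0.468). The row was picked for its distance from GFP, so the lack of overlap is partly built in. Of the 11 other regulators 10 in prep 2 and 11 in prep 4 were also above GFP in Kiwellin-1, and 0 exceeded bHLH97 in either prep. In the bHLH103 preps it was lower than in GFP, at 1.84 against 1.04 RPKM in prep 1 and 2.64 against 1.42 RPKM in prep 3.

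Below Kiwellin-1 in that order stood, among others, 3 potassium transporter genes. HAK16b, HAK1 and HAK21, of the KT/HAK/KUP family of potassium transporters, had log2 differences of 1.27, 1.22 and 1.17. mha2, a plasma membrane proton pump, differed by 1.16, glu1, a beta-glucosidase that frees benzoxazinoids from their glucosides, by 1.12, and the ethylene-response-factor-type gene EREB202 by 1.11. Many of the 11 other regulators were also above GFP in preps 2 and 4. They numbered 6 and 8 for HAK16b, 8 and 8 for HAK1 and 7 and 10 for HAK21. For mha2 they numbered 9 and 10, for glu1 6 and 9, and for EREB202 4 and 9. At the lower end stood opr3, opr2 and opr1, of the 12-oxophytodienoate reductase family to which an enzyme of jasmonate synthesis belongs, with log2 differences of −1.38, −1.29 and −1.26. The small heat shock protein gene hsp18c, at −1.04, and the chaperonin gene CPN60I, at −0.95, were also among the lowest 10, and none of these rows was called. Below GFP in preps 2 and 4 stood 10 and 6 of the 11 other regulators for opr3, 11 and 10 for opr2 and 10 and 8 for opr1. For hsp18c they numbered 10 and 8, and for CPN60I 8 and 9.

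For bHLH103 against GFP limma called 2 rows (0.00711% of those tested), both higher. One is GRMZM2G301089. The other, GRMZM2G025200, unnamed, stood at 0.962 RPKM in GFP and 5.13 RPKM in bHLH103 of prep 1 and at 1.18 and 5.25 RPKM in prep 3, a log2 rise of 1.86 ± 0.31 (limma adjusted p = 0.0200). The 20 libraries of the other regulators of those preps lay between 1.64 and 6.02 RPKM (median 4.65), so the GFP libraries were below all of them and bHLH103 was within their range. Against those regulators the log2 difference was 0.28.

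GRMZM2G025200 was no longer called with any of the 4 libraries left out, and GRMZM2G301089 stayed called only without the GFP library of prep 3. The number of calls was 0 without the bHLH103 library of prep 1 and 1 without that of prep 3 or without either GFP library. limma-voom on the recovered reads called 1. Within single preps 1354 rows were higher and 868 lower by at least 1 in prep 1, and 550 higher and 726 lower in prep 3. At an unadjusted p below 0.05 there were 2466 rows (8.77%), 1225 higher and 1241 lower.

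Of named rows PIP2-1 was farthest above GFP in bHLH103. PIP2-1, an aquaporin of the plasma membrane, stood at 22.9 RPKM in GFP and 90.2 RPKM in bHLH103 of prep 1 and at 10.4 and 33.05 RPKM in prep 3, a log2 difference of 1.79 ± 0.73 with no overlap between the groups. PIP1-1, of the same family, differed by 1.59 ± 0.70. CYP734A7, a cytochrome P450 of the group that inactivates brassinosteroids in Arabidopsis and rice, stood at 3.64 and 14.2 RPKM in prep 1 and 4.20 and 10.96 RPKM in prep 3, a difference of 1.55 ± 0.43. It has a second row, GRMZM5G852663, with nearly the same values, and how reads shared between such copies were counted is not stated. The glutathione S-transferase gene gst19, the ferredoxin gene fdx2 and the calcium sensor gene CBL8 differed by 1.53, 1.48 and 1.40, and none of these named rows was called. In each of them 8 to 10 of the 10 other regulators were also above GFP in prep 1 and in prep 3. For CYP734A7 all 10 were above GFP in both preps, and 5 (prep 1) and 3 (prep 3) exceeded bHLH103. For PIP2-1, 1 and 6 exceeded bHLH103, and for fdx2 0 and 3.

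With no prep term in the model, limma called 1 row (0.00356% of those tested) for both regulators against GFP, GRMZM2G301089. Its log2 change was 5.81 ± 0.97 (limma adjusted p = 0.0302). That change was the mean of the 4 within-prep differences, but its SE and p did not use the pairing by prep. That mean is carried by bHLH103, and with any 1 of 7 of the 8 libraries left out the row was no longer called. At an unadjusted p below 0.05 there were 4829 rows (17.2%), 2394 higher (8.51%) and 2435 lower (8.66%), against the 8.53% and 8.77% of either regulator alone. limma-voom on the recovered reads called 0 rows. Over all tested rows 4581 (16.3%) were higher than GFP in all 4 preps and 4229 (15%) were lower in all 4. Both directions together made 8810 rows. Over the 132 combinations of a regulator of preps 2 and 4 with one of preps 1 and 3, that number ran from 3131 to 9331 (median 5353.5). It was higher than in the pair for 3 combinations, bHLH97 with DOF25 (9331), ZIM13 (9069) and HSF2 (8875).

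Only 8 rows (0.0284%) were higher by at least 1 in each of the 4 preps, and 9 rows (0.032%) were lower by at least 1 in each. None has a name in the reference. GRMZM2G301089 and GRMZM2G459636 are among the 8. GRMZM2G338131, among the 9, stood at 2.52 and 0.558 RPKM in GFP and bHLH97 of prep 2, at 4.36 and 1.10 RPKM in prep 4, at 5.19 and 2.16 RPKM in GFP and bHLH103 of prep 1, and at 6.97 and 1.87 RPKM in prep 3. All 4 bHLH libraries lay below all 4 GFP libraries in it. GRMZM5G847915 lay at 11.9 to 27.1 RPKM in GFP and 3.30 to 8.97 RPKM in the bHLH libraries, also without overlap.

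The changes of the pair, which share no library, were alike across rows more than those of any other combination of a regulator of preps 2 and 4 with one of preps 1 and 3. Pearson's r between the bHLH97 change and the bHLH103 change was 0.38 over 28122 rows, where the 132 combinations had a median of 0.0587 and the next was bHLH97 with DOF25 at 0.366. Over the 15203 rows with a mean of at least 5 RPKM it was 0.555, and the next combination had 0.505. These are descriptions: rows are not independent, every change from 1 prep pair is taken against the same pair of GFP libraries, and no p applies. Taken against the other regulators of the same preps in place of GFP, r was 0.259 over all rows, and 2 of the 132 combinations were higher, up to 0.323.

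The likeness ran along particular preps. Between single libraries, bHLH97 of prep 4 and bHLH103 of prep 3 had r = 0.371, the highest of the 132 combinations of libraries of those preps, and bHLH97 of prep 2 and bHLH103 of prep 1 had 0.312, with 1 combination above it. The other combinations were lower, at 0.137 for prep 2 with prep 3 and 0.0671 for prep 4 with prep 1. Within a regulator, the bHLH97 libraries had r = 0.216, the 8th of 23 regulators, and the bHLH103 libraries had 0.0662, the 18th. The bHLH103 change in 1 prep was less like its own repeat than like a bHLH97 library of a separate prep. Taken against the other regulators of the prep in place of GFP, r was 0.295 between the bHLH97 libraries and −0.155 between the bHLH103 libraries. Between bHLH97 and bHLH103 libraries it was then 0.260 (preps 4 and 3), 0.245 (2 and 1), 0.0827 (4 and 1) and −0.0400 (2 and 3).

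**Figure D2:**
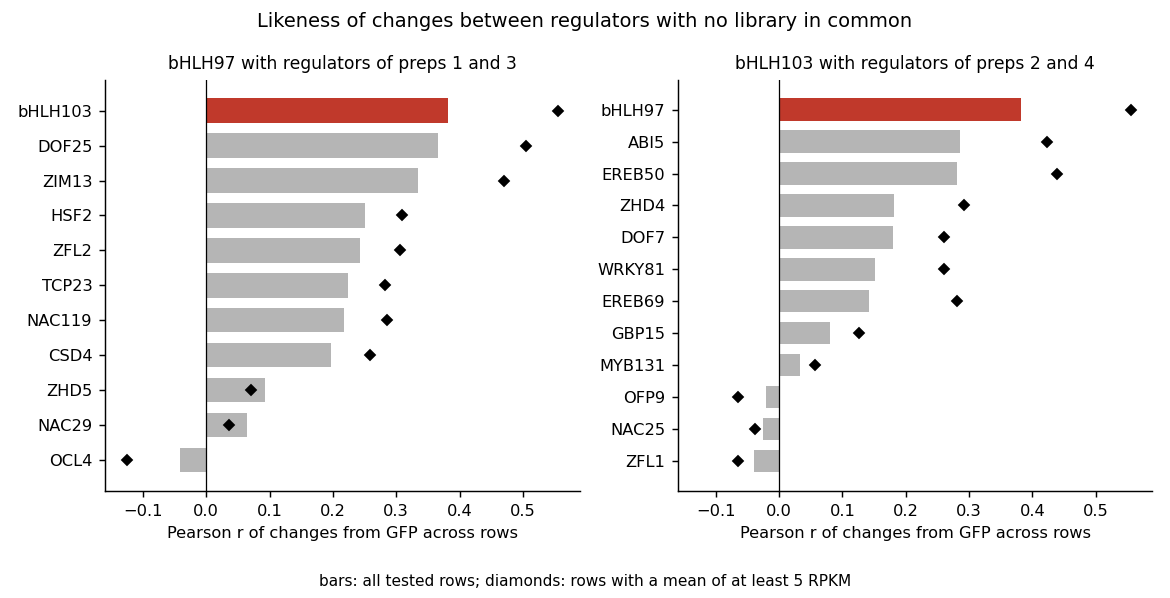
Pearson's r across rows between the change of bHLH97 and that of each regulator of preps 1 and 3 (left), and between the change of bHLH103 and that of each regulator of preps 2 and 4 (right), all against GFP. Bars are over 28122 rows, diamonds over the 15203 rows averaging 5 RPKM or more, and the red bar is the pair itself, at 0.38 and 0.555, the highest in both panels.

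With prep as a block in the model, 98 rows were called higher (0.348% of those tested) and 58 lower (0.206%) for both regulators together, 156 in place of 1. That number rested on single libraries: it was 3 without the bHLH97 library of prep 2, 3 without the bHLH103 library of prep 1, and 320 without the bHLH103 library of prep 3. Leaving out the bHLH97 library of prep 4 gave 76, and the GFP libraries gave 66 (prep 2), 54 (prep 4), 29 (prep 1) and 167 (prep 3). Of the 132 combinations of regulators 25 had more than 156 calls by the same block fit (range 2 to 450, median 11.5). For calls to lower values, 2 combinations had more than 58 (median 3). With the block, 18 of the 156 rows had a name, 15 higher and 3 lower.

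The median log2 change of the 98 rows called higher with the block was 1.16 against GFP and 0.57 against the other regulators of the same preps. For the 58 rows called lower the medians were −1.13 and −0.56. The rows were called with these same bHLH libraries at a log2 threshold of 1. A median past 1 in size against GFP is therefore fixed by the call. The sign against the other regulators, which reuses those libraries, is partly built in. Against the other regulators the block fit called 1 row higher and 3 lower for the pair.

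Named rows that rose with the block included ICL, asn3, lkrsdh1 and SGR1. ICL, isocitrate lyase of the glyoxylate cycle, stood at 476 and 929 RPKM in GFP and bHLH97 of prep 2, at 340 and 690 RPKM in prep 4, at 159 and 548 RPKM in GFP and bHLH103 of prep 1, and at 249 and 491 RPKM in prep 3. All 4 bHLH libraries were above all 4 GFP libraries, and the log2 change was 1.19 ± 0.31 (limma adjusted p = 0.121, with the block 0.0137). asn3, an asparagine synthetase gene, rose by 1.17 with the block, and lkrsdh1, which opens lysine breakdown, by 1.02. SGR1, a stay-green gene whose product takes the magnesium from chlorophyll, stood at 32.2 and 60.2 RPKM in prep 2, 14.5 and 33.3 RPKM in prep 4, 8.88 and 35.8 RPKM in prep 1, and 6.16 and 10.9 RPKM in prep 3. Each bHLH library of SGR1 was above its own GFP library, though the groups overlapped across preps. The 2 rows of SGR1 (GRMZM2G103881 and GRMZM2G379563) had nearly the same values and are not independent.

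The potassium transporter genes HAK16b and HAK1 rose by 1.39 and 1.20 with the block. HAK1 stood at 59.6 and 143 RPKM in GFP and bHLH97 of prep 2, 36.0 and 82.9 RPKM in prep 4, 22.98 and 78.5 RPKM in GFP and bHLH103 of prep 1, and 30.8 and 47.3 RPKM in prep 3. The bHLH103 library of prep 3 was below the GFP library of prep 2, so the groups overlapped. gt1 (grassy tillers1), a homeodomain-leucine zipper gene that restrains side shoots, rose by 1.31, TIFY28, of the family that holds the jasmonate ZIM repressors, by 1.20, and RIP, a ribosome-inactivating protein gene, by 1.18. MYBR95, a MYB-related gene, had the largest named difference, 1.43 ± 0.73, and PIP2-1 one of 1.30 ± 0.52, but neither was called with or without the block.

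Named rows that fell with the block were In2-2, opr3 and opr2. In2-2, a gene first found as induced by herbicide safeners, stood at 318 and 122 RPKM in GFP and bHLH97 of prep 2, at 403 and 206 RPKM in prep 4, at 773 and 211 RPKM in GFP and bHLH103 of prep 1, and at 432 and 299 RPKM in prep 3. Its 4 bHLH libraries lay below all 4 GFP libraries, and it fell by 1.19 (limma adjusted p with the block 0.0198, 0.156 without). opr2 stood at 204 and 62.7 RPKM in prep 2, 214 and 115 RPKM in prep 4, 207 and 87.9 RPKM in prep 1 and 222 and 180 RPKM in prep 3, and fell by 1.03. The GFP libraries of opr2 were near each other in all preps and above every bHLH library. The next lowest named rows, gst30, RPL10, gst6, In2-1, AO2, gst31 and AR1, differed by −0.80 to −0.99, short of the log2 threshold of 1. RPL10 (GRMZM2G088005), a ribosomal protein gene, stood at 23.8 and 9.53, 34.3 and 17.6, 24.02 and 10.8, and 26.3 and 19.0 RPKM in preps 2, 4, 1 and 3, with no overlap between the groups. All 11 other regulators in preps 2 and 4 and all 10 in preps 1 and 3 were below GFP in RPL10 as well. The bHLH library was lower than all of them in preps 2, 4 and 1, but 8 of 10 were lower than bHLH103 in prep 3.

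**Figure D3:**
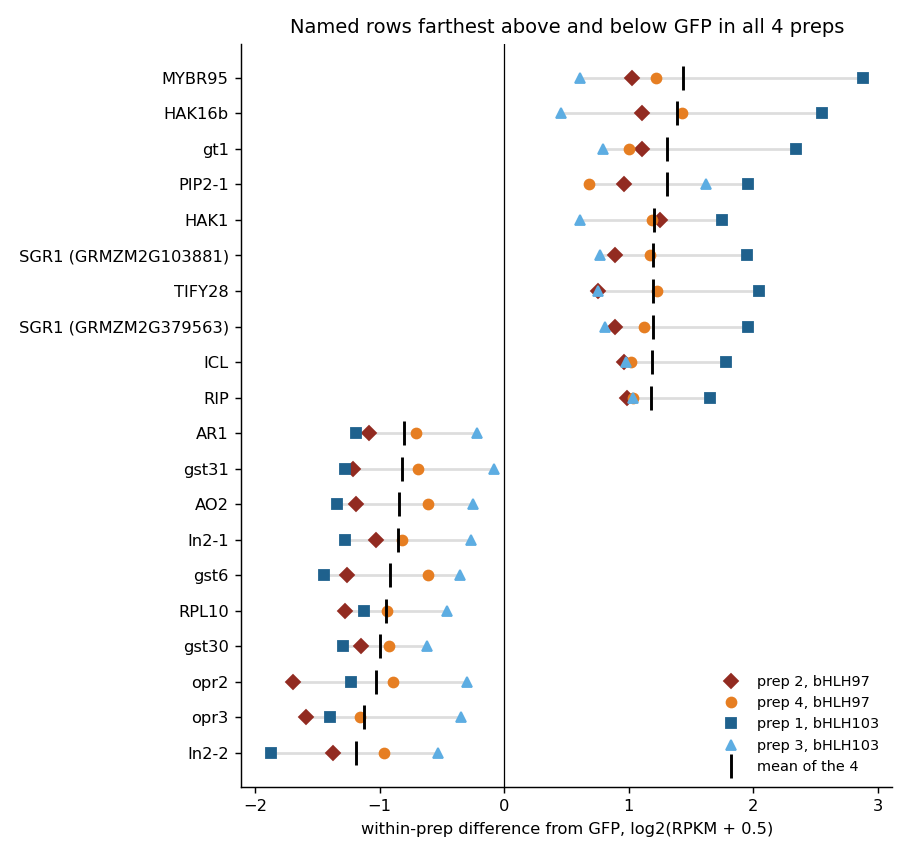
Within-prep differences from GFP, on the log2(RPKM + 0.5) scale, of the 10 named rows farthest above and the 10 farthest below GFP in all 4 preps. Marks are the 4 preps and the black bar is their mean, from 1.43 for MYBR95 to −1.19 for In2-2. In most rows prep 1 (bHLH103) lies farthest from 0 and prep 3 (bHLH103) nearest to it.

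The other regulators of a prep also stood away from GFP in these rows. For the 10 rows farthest above GFP, 9 to 10 of the 10 other regulators in prep 3 and 8 to 10 in prep 1 were above GFP as well, with 2 to 9 of 11 in prep 2 and 4 to 10 of 11 in prep 4. The rows were picked for the distance of these same bHLH libraries from GFP, so a place beyond the other regulators is partly built in. How often that place occurs over all tested rows was not computed. bHLH97 exceeded all 11 others in 10 of the 10 rows in prep 2 and in 6 of 10 in prep 4. bHLH103 exceeded all 10 others in 4 of the 10 rows in prep 1 and in 0 of 10 in prep 3, where 3 to 8 of the other regulators were higher still. In the 10 rows farthest below GFP most other regulators were below GFP as well. They numbered 8 to 11 of 11 in prep 2 and 6 to 11 of 11 in prep 4. In preps 1 and 3 they numbered 8 to 10 and 6 to 10 of 10. Of these rows bHLH97 was lower than every other regulator in 8 in prep 2 and 9 in prep 4. bHLH103 was so in 5 in prep 1 and 0 in prep 3. Against the other regulators none of these 20 rows was called.

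**Figure D4:**
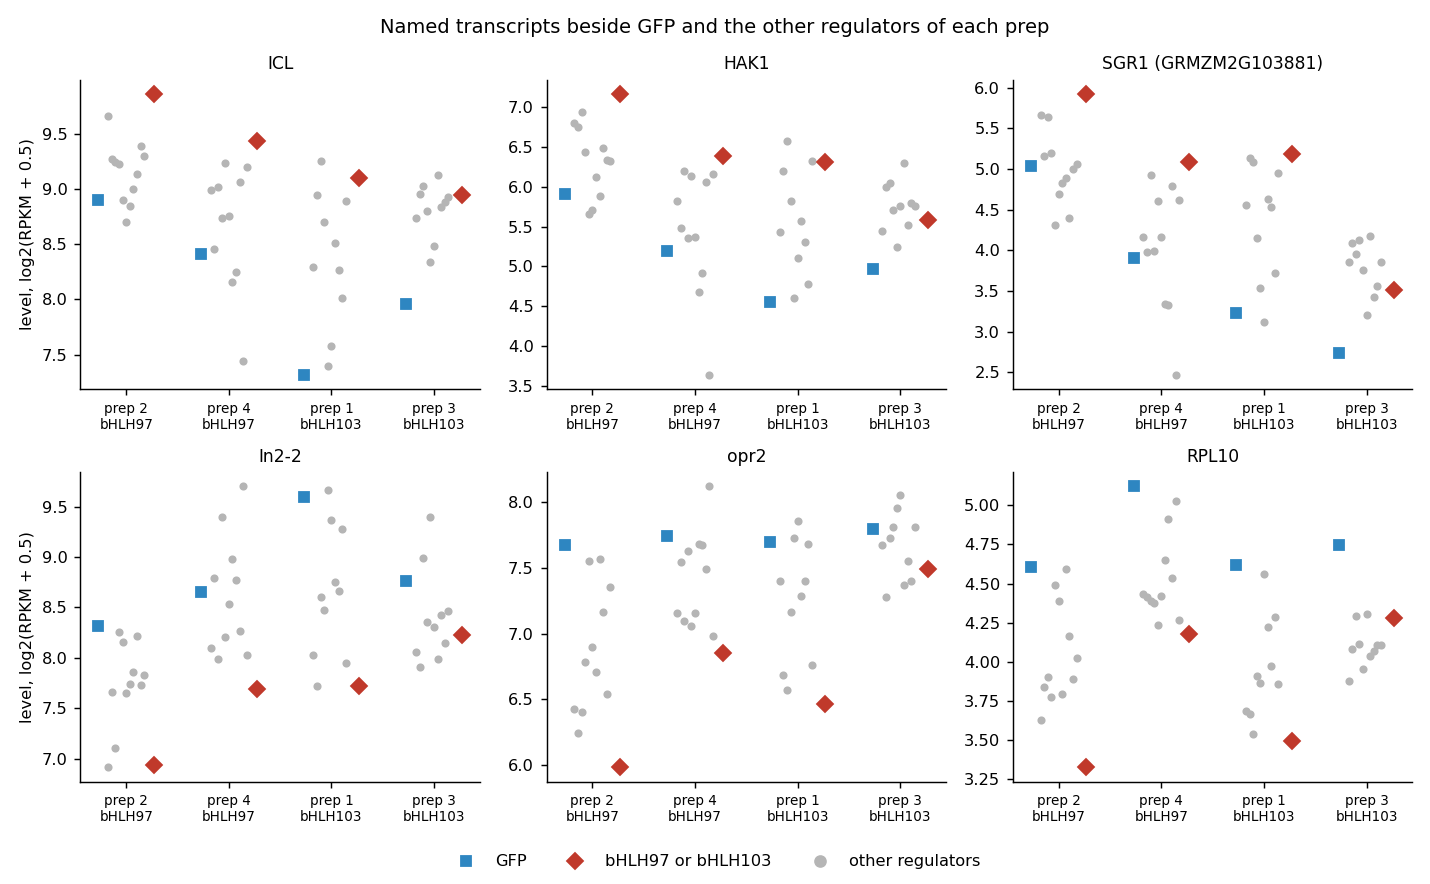
Levels of 6 named transcripts, as log2(RPKM + 0.5), in GFP (squares), bHLH97 or bHLH103 (diamonds) and the other regulators of the same prep (circles). The bHLH libraries lie above GFP for ICL, HAK1 and SGR1 and below it for In2-2, opr2 and RPL10 in each prep, at or near the edge of the other regulators in prep 2 and among them in prep 3.

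Where the pair differed was tested directly, as the bHLH97 change minus the bHLH103 change. limma called 0 rows (0% of those tested), the lowest adjusted p was 0.489, 694 rows (2.47%) had an unadjusted p below 0.05, and limma-voom called 0. With prep as a block 1 row was called, GRMZM2G301089, with a difference of −7.84. Among named rows of opposite direction Kiwellin-1 had the largest difference, 2.07 higher in bHLH97. IDI2, TUBC, gigz1b and psad1 followed with 0.77 to 0.87, and on the other side MYBE1, a MYB gene, was 1.06 lower in bHLH97, at 22.7 and 19.0 RPKM in GFP and bHLH97 of prep 2 and 24.4 and 17.6 RPKM in prep 4, against 19.3 and 29.2 RPKM in GFP and bHLH103 of prep 1 and 9.39 and 17.1 RPKM in prep 3. None was called.

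Against the other regulators of the same preps limma called 3 rows for bHLH97 (0.0107%), 6 for bHLH103 (0.0213%) and 4 for both (0.0142%). GRMZM2G301089 was the only one higher, in bHLH103 and in both. The others were lower, and all but GRMZM2G438438 lay under 0.5 RPKM in the 8 bHLH and GFP libraries. For bHLH97 they were fl1 and OFP16, listed at 0 in both bHLH97 libraries and in the GFP libraries of preps 2 and 4, and GRMZM2G378490. CUC2, listed at 0 in both bHLH103 libraries, was among the 5 for bHLH103.

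The gene lists were described by counts and medians beside those of all tested rows, whose median log2 change for the pair was 0.00, with 14152 of 28122 above 0. Of all tested rows 16.3% were above and 15% below GFP in all 4 preps, and 8.51% were higher and 8.66% lower at an unadjusted p below 0.05. Of 15 heat shock protein rows, chaperones that hold or refold damaged proteins, 0 lay above 0 for the pair, the median was −0.62, and 3 were lower at an unadjusted p below 0.05 in limma, where 8.66% of all rows were. hsp22 stood at 1338 and 576 RPKM in GFP and bHLH97 of prep 2, 1665 and 1097 RPKM in prep 4, 1839 and 909 RPKM in GFP and bHLH103 of prep 1, and 1650 and 1646 RPKM in prep 3. The list medians were −0.93, −0.46 and −1.01 in preps 2, 4 and 1 but 0.04 in prep 3, where 11 of 15 rows were above GFP. The median against the other regulators was −0.34.

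Ribosomal protein rows had medians below 0 in all 4 preps, at −0.37, −0.23, −0.73 and −0.31 in preps 2, 4, 1 and 3. Of 33 rows 2 lay above 0 for the pair, 24 were below GFP in all 4 preps (15% of all rows) and 22 were lower at an unadjusted p below 0.05 (8.66% of all rows), with a median of −0.46. 0 of them were called with the block. The largest differences after RPL10 were rpl30 at −0.63 ± 0.21 and the acidic ribosomal protein gene arpp2a at −0.59 ± 0.15. Against the other regulators the median was −0.24.

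Defence rows lay mostly above GFP. Of 9, 6 were above GFP in all 4 preps (16.3% of all rows) and 1 below (15%), the median was 0.52, and the 4 prep medians were 0.68, 0.51, 0.85 and 0.16 in preps 2, 4, 1 and 3. chiA, a chitinase gene, stood at 1885 and 4004 RPKM in prep 2, 1235 and 2265 RPKM in prep 4, 1124 and 2924 RPKM in prep 1 and 1085 and 1573 RPKM in prep 3, a log2 difference of 0.97 ± 0.37. PR-5, of the thaumatin-like proteins, differed by 0.97 ± 0.34 and wip1, a wound-induced protease inhibitor gene, by 0.62 ± 0.37. PR10 lay the other way, at −0.58 ± 0.22. The list's median against the other regulators was 0.29 for the pair, 0.55 for bHLH97 and 0.07 for bHLH103. None was called with or without the block.

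In the jasmonate list, of 40 tested rows 28 lay above 0, with 19 above GFP and 3 below it in all 4 preps (16.3% and 15% of all rows) and a median of 0.26, or 0.15 against the other regulators. With the block TIFY28 rose and opr3 and opr2 fell. Other TIFY rows, TIFY9 and TIFY1, were higher by 0.97 ± 0.44 and 0.93 ± 0.41, while opr1 and opr5 differed by −0.85 ± 0.31 and −0.80 ± 0.40. Among 39 glutathione and redox rows 8 were above and 14 below GFP in all 4 preps (16.3% and 15% of all rows), with a median of −0.07. gst7 stood at 5769 and 2769 RPKM in prep 2, 7744 and 5067 RPKM in prep 4, 10360 and 4974 RPKM in prep 1 and 8711 and 8047 RPKM in prep 3, while gst19 rose by 1.03 with the block.

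Of 14 autophagy rows 12 lay above 0 with a median of 0.16, and Atg7, the activating enzyme of autophagosome conjugation, differed by 0.46 ± 0.13. Its levels were 80.5 and 112 RPKM in prep 2, 67.1 and 97.1 RPKM in prep 4, 68.9 and 94.0 RPKM in prep 1 and 72.3 and 94.1 RPKM in prep 3, with no overlap between bHLH and GFP libraries. Most other regulators were also above GFP in Atg7, 10 and 11 of 11 in preps 2 and 4 and 8 and 10 of 10 in preps 1 and 3. In preps 2, 4, 1 and 3, 2, 3, 1 and 4 of them exceeded the bHLH library. The bHLH family itself had 18 of 23 rows tested, of which 14 lay above 0, with a median of 0.25. bHLH104 stood at 49.8 and 67.1 RPKM in prep 2, 40.2 and 55.1 RPKM in prep 4, 19.9 and 47.0 RPKM in prep 1 and 15.4 and 28.9 RPKM in prep 3, and bHLH116 and bHLH161 differed by 1.16 ± 0.78 and 0.79 ± 0.32. For bHLH104 all 10 other regulators were above GFP in prep 1 and in prep 3, and 4 of 11 in prep 2 and in prep 4. Histone and cell cycle rows had a median of −0.18 and clock rows one of 0.30. The medians of the MYB, abscisic acid, ethylene, auxin, starch and phenylpropanoid lists lay between 0.04 and 0.13. Wall rows had a median of 0.32 against GFP but 0.01 against the other regulators. Clock rows, at 0.30, had 0.15 against the other regulators, the bHLH family 0.08 and autophagy rows 0.10. The median against GFP was 0.25 for benzoxazinoid and terpenoid rows, 0.15 each for flavonoid and photosynthesis rows, −0.19 for low-oxygen rows and −0.08 for reference genes.

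**Figure D5:**
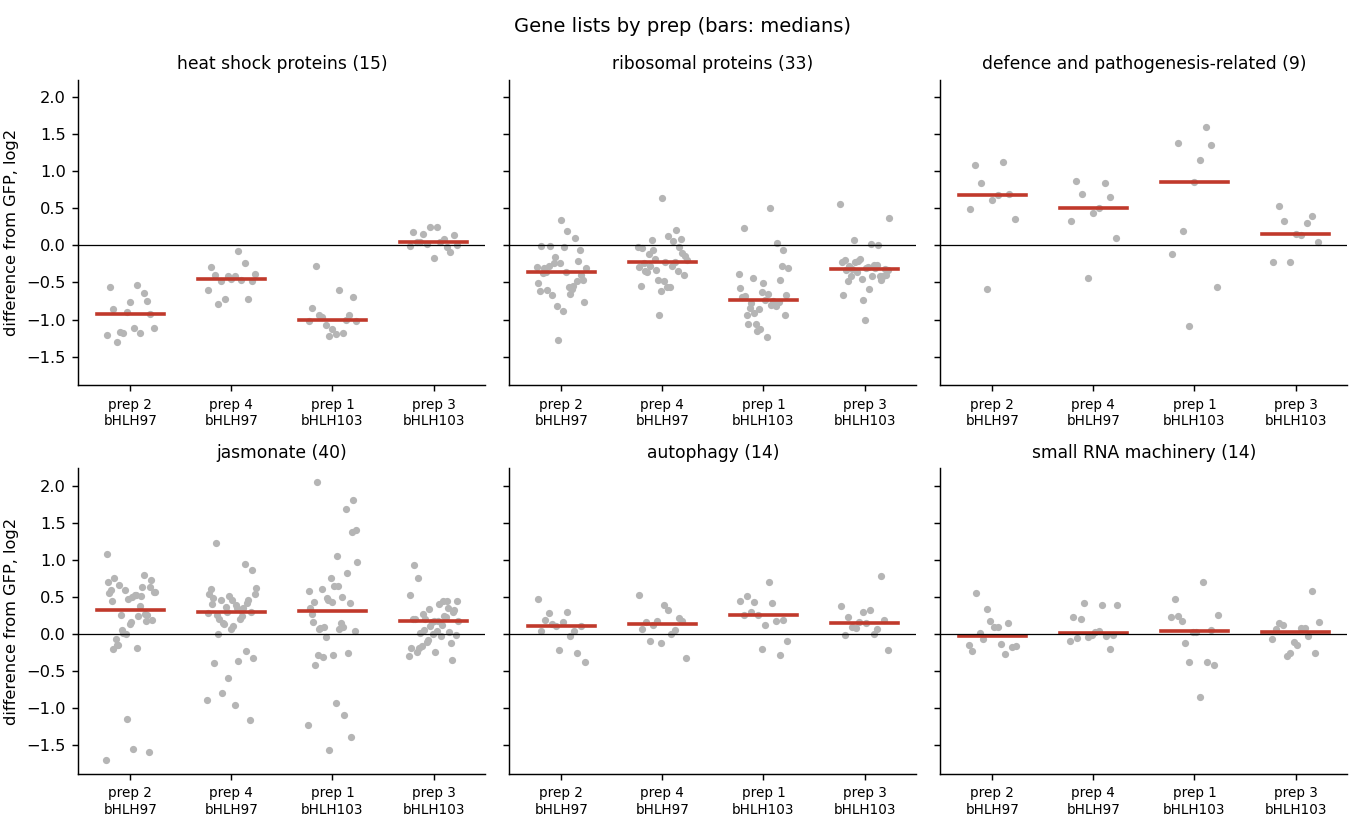
Within-prep differences from GFP, on the log2 scale, of the tested rows of 6 gene lists (grey points) with their median (red bar) in each prep. Heat shock rows lie below 0 in preps 2, 4 and 1 but near it in prep 3 (median 0.04), ribosomal rows lie below 0 in all 4, and the small RNA machinery has medians near 0.

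The small RNA machinery and the PHAS loci bear on the role for which the regulators were picked. Of 16 machinery rows 14 were tested, the median was 0.01, and 0 had an unadjusted p below 0.05 in limma. dcl4 (GRMZM2G160473), a Dicer-like gene of the kind that cuts phased RNAs, stood at 23.2 and 21.1 RPKM in prep 2, 16.2 and 21.4 RPKM in prep 4, 13.7 and 22.6 RPKM in prep 1 and 21.8 and 23.1 RPKM in prep 3, so 3 of 4 preps were higher and the groups overlapped. Rows GRMZM2G024466 and GRMZM2G050882 also carry the name dcl4, and their values are not given here. argonaute1, whose product binds small RNAs, differed by −0.17 ± 0.14.

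Of 9 PHAS rows 7 were tested, with a median of −0.13 and 0 at an unadjusted p below 0.05. The most abundant, 24PHAS_NO166, stood at 276 and 202 RPKM in prep 2, 270 and 242 RPKM in prep 4, 219 and 237 RPKM in prep 1 and 277 and 273 RPKM in prep 3, a difference of −0.13 ± 0.15. 21PHAS_NO232 stood at 2.00 and 3.65 RPKM in prep 2, 8.61 and 3.60 RPKM in prep 4, 3.56 and 6.05 RPKM in prep 1 and 4.06 and 5.98 RPKM in prep 3, higher in 3 preps and lower in 1, a difference of 0.20 ± 0.31. 24PHAS_NO35 and 24PHAS_NO44, below the filter, were under 1 RPKM in all 8 libraries. The other tested PHAS rows differed by −0.34 to 0.02, each by less than its SE. At this depth and spread no difference was detected in the tested PHAS rows. Over all 28122 tested rows the median SE for the pair was 0.19. That is below the 0.31 of 21PHAS_NO232, so it does not give the precision of each PHAS row.

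Anther and meiosis genes had 6 rows, with a median of −0.16. ocl4, an outer cell layer homeodomain gene and itself 1 of the study's regulators, stood at 2.34 RPKM in bHLH103 of prep 1 and was listed at 0 in all 4 GFP libraries. The other 10 libraries of prep 1 apart from OCL4 lay between 0 and 0.0784 RPKM, 7 of them at 0, and the OCL4 library of that prep was at 2298 RPKM. ocl4 was also above 0 in the bHLH libraries of preps 2, 4 and 3. There it exceeded 11 of 11 other regulators in prep 2, 8 of 11 in prep 4 and 9 of 10 in prep 3. Only 6, 3 and 4 of all those other regulators were above 0 in preps 2, 4 and 3, and the rest were listed at 0. In prep 4 those 3 were all higher than bHLH97, so there it exceeded only libraries listed at 0. Spo11-2, a meiotic recombination gene, differed by 0.46 ± 0.21.

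Of 3 mesophyll marker rows found by name, C4ppdkZm1 and mdh6 were above GFP in each of the 4 preps and pep1 was not. C4ppdkZm1, the C4 pyruvate phosphate dikinase of mesophyll cells, stood at 202 and 378 RPKM in prep 2, 125 and 268 RPKM in prep 4, 93.2 and 137 RPKM in prep 1 and 82.8 and 138 RPKM in prep 3, a log2 difference of 0.82 ± 0.25. The mesophyll sum, most of it C4ppdkZm1, was 291 to 414 RPKM in bHLH97 against 141 to 231 RPKM in GFP of its preps, and 161 to 163 RPKM in bHLH103 against 104 to 115 RPKM in GFP. The other regulators spanned 87.2 to 539 RPKM. mdh6, a malate dehydrogenase gene, differed by 0.28 ± 0.28. pep1, a defining mesophyll marker left out by the filter, was under 1 RPKM in all 8 libraries of these etiolated leaves. It stood at 0.348 and 0.178 RPKM in prep 2, 0.339 and 0.566 RPKM in prep 4, 0.237 and 0.201 RPKM in prep 1 and 0.464 and 0.531 RPKM in prep 3, below GFP in preps 2 and 1 and above it in preps 4 and 3. Bundle sheath markers (4 rows) summed to 34.3 to 96.8 RPKM in bHLH97, 26.5 to 63.1 RPKM in its GFP, 18.3 to 47.0 RPKM in bHLH103 and 19.2 to 23.6 RPKM in its GFP. Epidermal markers (5 rows) summed to 16.2 to 27.6 RPKM over the 8 libraries and the vascular marker sut1 to 1.59 to 3.70 RPKM. 0 rows of the meristem list and 0 of the anther and tapetum list were found by name. The part of cell makeup in the gene differences was not tested.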

How the data were processed

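Polyadenylated RNA of the 50 libraries was sequenced from directional libraries. The authors deposited 1 table of RPKM. Per the submitters' processing notes it came from HISAT2 2.1.0, featureCounts of Subread 1.6.3 and edgeR 3.20.9, on B73 RefGen_v3. Values were turned into log2(RPKM + 0.5), and 28122 of 30213 rows, those at 1 RPKM or more in 2 or more libraries, were fitted with limma 3.58.1 in R 4.3.3. One model held 25 groups and 25 residual degrees of freedom, with trended variances. Each regulator was set against GFP of its own preps, and against the mean of the other regulators there. Whole reads were recovered from the RPKM steps for 30213 of 30213 rows, within 0.05 of a whole number. Depth sets the precision of low rows, though reads counted with no molecular identifiers may repeat 1 molecule.

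The NAM-5.0 annotation of B73 matched 14595 rows and named 1878 of them, and 447 rows matched several genes. Its build differs from the authors', so no positions or sequences are given, and promoter motifs were not analysed here. The members and gene lists were chosen with earlier results of these data known. Rows named were called rows, the largest rise of each regulator, the 10 named rows of at least 2 RPKM farthest above and below GFP in the same direction in every prep, the 5 largest opposite differences on each side, up to 4 members of a list, and PHAS rows. Others were chosen after their values were seen.

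Replicate numbers are prep numbers, so prep was also fitted as a block. The prep difference of 1 group correlated with that of another at a median of 0.131 (66 pairs of groups) in preps 1 and 3 and 0.253 (78 pairs) in preps 2 and 4. The pairing comes from the labels. Other alternatives were limma-voom on the recovered reads, each library left out in turn, a pseudocount of 0.1 or 1, separate fits of each prep pair, rescaling by median ratios, and testing without the filter. Those alternatives applied to the block fit were added after seeing the data. Fits were tested on simulated data.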

Additional observations from a re-analysis of the deposited data

Results flagged for a closer look

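Among 48 groups of 4 within-prep differences, 3 held 1 value far from the others by Dixon's test, which takes the gap to its neighbour as a share of the range. Chance gives about 1 such group in 20. For ICL (GRMZM2G056369) the share was 0.93, with a difference of 1.78 in prep 1 against 0.96 to 1.02 in the other preps. RIP (GRMZM2G119705) had a share of 0.924, also from prep 1. For the median of the reference genes the share was 0.871, again from prep 1, at −0.34 against 0.04 to 0.09. All 3 come from the bHLH103 library and the GFP library of prep 1.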

How the results depend on the processing

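Counts of called rows depended on the block and on single libraries. Prep as a replicate block moved the count for both regulators against GFP from 1 to 156 and that for their difference from 0 to 1, and changed no other count against GFP. A pseudocount of 0.1 gave 2 calls for both against GFP, 0 for bHLH97 against the other regulators (3 in the text), 2 for bHLH103 (6) and 2 for both (4), while a pseudocount of 1 gave 2 for both against the other regulators. limma-voom gave 1 for bHLH103 and 0 for both against GFP, and 0, 1 and 1 for bHLH97, bHLH103 and both against the other regulators. Under the block, a pseudocount of 0.1 gave 251, limma-voom 237 and a pseudocount of 1 gave 109. Leaving out 1 library gave 1 to 3 calls for bHLH97 against GFP, 0 to 1 for bHLH103, 0 to 5 for both, 0 to 1 for their difference, 2 to 6 for bHLH97 and 2 to 7 for both against the other regulators, and 3 to 320 under the block. The correlation between the pair was 0.555 over rows of at least 5 RPKM. The MYBR95 difference in bHLH97 ran from −0.00034 without GFP replicate 4, where its sign turned, to 2.25 without GFP replicate 2. Of 87 values for named rows, 76 kept their direction and side of the threshold under the block and 11 were past it only there. The cause of these shifts was not tested. With 2 libraries a group the spread between preps is known only roughly, and rows under 1 RPKM rest on few reads.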
